A study of Mus musculus with 24 samples.

Results

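The semaphorin, plexin, neuropilin, Eph receptor and ephrin genes were described in maps of histone H3 lysine 27 acetylation (H3K27ac) from embryonic mouse limb buds. The members are the 53 of 21887 protein-coding genes whose symbols belong to these families: 7 class 3 semaphorins, 13 semaphorins of classes 4 to 7, 9 plexins, 2 neuropilins, 9 EphA and 5 EphB receptors, 5 ephrin-A and 3 ephrin-B genes. No measured value entered the rule, which reads the symbol, although earlier results of these data were known when the families were picked. Histone marks were profiled with antibodies and sequencing (ChIP-seq) in limb buds that carried or lacked Sox9, the transcription factor that cartilage formation depends on. The 4 H3K27ac peak lists used here came from 1 library each, named by title as a control and Sox9null at embryonic day E11.5 and a control and Sox9cKO at E12.5. The labels give neither the alleles nor a Cre driver, and they do not say how many embryos were pooled, which strain was used or whether fore limbs, hind limbs or both were taken. With 1 library a group no difference could be set against replicate error, so every comparison compares lists, without a test.

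Semaphorins are secreted or membrane-bound cues read by plexin receptors. Most of the secreted class 3 proteins bind plexins through the neuropilins Nrp1 and Nrp2, whereas most semaphorins of the other classes bind plexins directly. Ephrins are cell-surface ligands of the Eph receptor tyrosine kinases, tethered to the membrane by a lipid anchor (ephrin-A) or by a transmembrane segment (ephrin-B). In the limb these proteins steer motor and sensory axons, shape vessels and sort mesenchymal cells into domains. H3K27ac marks active promoters and enhancers.

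The lists differed from each other in ways that touch every member. The control lists held 36045 peaks at E11.5 and 32821 at E12.5, the labelled Sox9null list 28419 and the labelled Sox9cKO list 36937. In that order they covered 52.0, 66.7, 59.7 and 60.4 Mb at median widths of 1141, 1707, 1778 and 1332 bp. For the pair of lists from Sox9-deficient limbs, the name each list carries and the title of its sample disagree, as if the lists had been swapped. Each list is therefore called by its title, "labelled Sox9null" or "labelled Sox9cKO", and each comparison is also given with the lists exchanged. Acetylation at Sox9 itself does not check for a deletion, and its window was covered by 7.80, 8.77, 7.76 and 6.90 kb in the same order. The share of the Sox9 gene body under peaks was 96.6, 81.3, 55.8 and 54.3%, lower in both deficient lists than in both controls. Limb mesenchyme markers had a peak at a gene end for 10 of 10 genes in every list. Tbx5, a gene of the fore limb, was covered by 31.7, 3.76, 0 and 32.6 kb, while Tbx4, a gene of the hind limb, was covered by 29.7, 34.4, 38.1 and 31.9 kb. On Tbx5 the labelled Sox9null list thus stood with the E12.5 control, and the labelled Sox9cKO list with the E11.5 control. Which limbs were taken and which group a list belongs to cannot be told apart in these values.

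Each gene was measured by how many kb of its window, the gene body with 20 kb on either side, lay under peaks. The guidance genes were marked more often than genes at large. Of the 53 members, 53 had a peak in their window in at least 1 list, against 76.1% of all genes, and 47 had one in all 4 lists, against 66.7%. A peak within 1000 bp of a gene end was present at 45, 41, 38 and 46 members (84.9, 77.4, 71.7 and 86.8%), against 56.9, 53.3, 51.9 and 57.7% of all genes. The members are long, with a median gene length of 36.3 kb against 17.2 kb, so their windows hold more bases. Their median covered length was 5.72, 7.63, 6.06 and 7.20 kb, against 3.46, 3.65, 3.44 and 3.88 kb for all genes with a peak in at least 1 list. As a share of the window the distance shrank, and in the labelled Sox9cKO list the members were not above those genes. Member medians were 5.60, 5.72, 4.79 and 5.26%, against 4.65, 4.92, 4.62 and 5.27% for all genes with a peak in at least 1 list. At 6 members most of the covered bases lay in the bodies of other genes. In a tissue of many cell types, fewer acetylated cells and less acetylation per cell cannot be told apart.

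**Figure D1:**
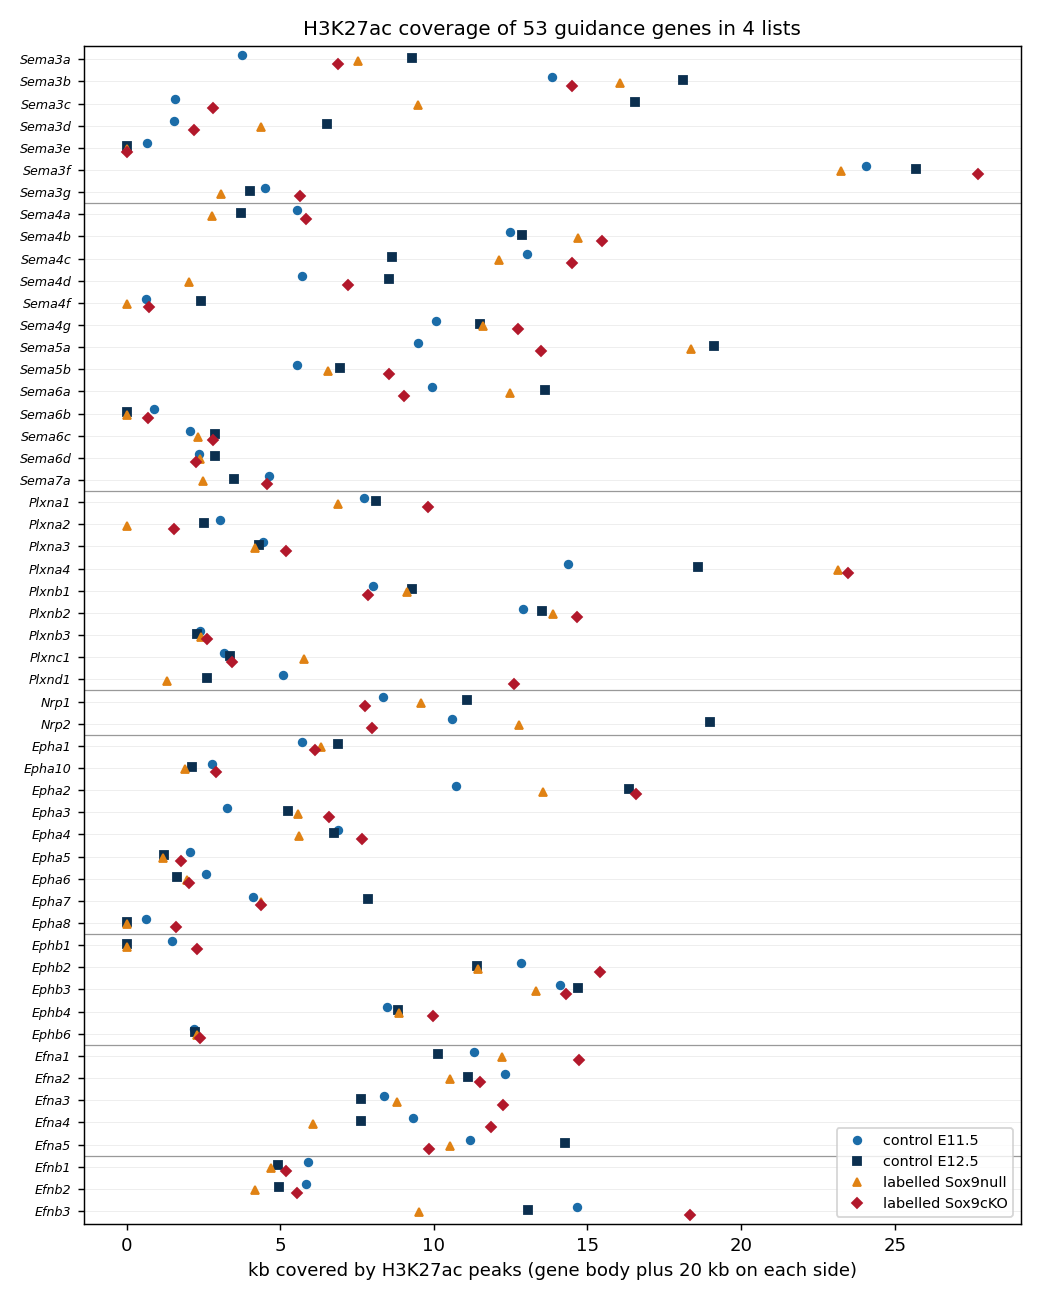
H3K27ac-covered length (kb, horizontal axis) over the gene body with 20 kb on either side, for each of the 53 guidance genes (rows, by family) in the 4 peak lists (1 symbol per list, 1 library each). Sema3f and Plxna4 reach over 20 kb, Sema3e, Sema4f and Sema6b stay under 3 kb, and Sema3c, Nrp2 and Plxnd1 show wide spreads between the lists.

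The promoters of 6 members are shown because their marks behaved differently. Those of Sema3c and Nrp2, whose windows differed widely between lists, were marked in all 4 lists, whereas the start sites of Epha3, Ephb1, Sema3e and Sema4f were marked in some lists and not in others. Each sequence is the 250 bases before the annotated start in RefSeq (GRCm38.p6, the mm10 assembly), 5′ to 3′ on the gene's strand. They lie at chr5:17574566-17574815, plus strand (Sema3c), chr1:62703067-62703316, plus strand (Nrp2), chr16:63864176-63864425, minus strand (Epha3), chr9:102354694-102354943, minus strand (Ephb1), chr5:14025026-14025275, plus strand (Sema3e) and chr6:82939770-82940019, minus strand (Sema4f). All lie outside the gene record, upstream of the transcript. Capitals mark the GC box GGGCGG, the core letters bound by Sp1-family factors, and AACAAT, the letters at the core of SOX binding motifs, each on either strand.
Sema3c: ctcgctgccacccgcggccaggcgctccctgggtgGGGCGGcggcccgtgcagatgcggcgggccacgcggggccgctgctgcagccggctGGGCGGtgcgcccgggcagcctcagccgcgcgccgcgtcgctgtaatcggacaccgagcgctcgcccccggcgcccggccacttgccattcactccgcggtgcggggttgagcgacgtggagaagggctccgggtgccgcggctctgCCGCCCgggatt
Nrp2: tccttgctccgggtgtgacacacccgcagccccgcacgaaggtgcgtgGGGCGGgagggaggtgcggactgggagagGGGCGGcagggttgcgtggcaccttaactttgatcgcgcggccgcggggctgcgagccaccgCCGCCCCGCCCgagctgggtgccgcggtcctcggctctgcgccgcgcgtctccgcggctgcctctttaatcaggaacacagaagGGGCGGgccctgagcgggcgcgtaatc
Epha3: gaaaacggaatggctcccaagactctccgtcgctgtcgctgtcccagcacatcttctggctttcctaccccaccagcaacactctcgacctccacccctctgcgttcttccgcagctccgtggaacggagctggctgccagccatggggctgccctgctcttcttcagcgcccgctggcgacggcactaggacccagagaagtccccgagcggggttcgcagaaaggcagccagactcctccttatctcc
Ephb1: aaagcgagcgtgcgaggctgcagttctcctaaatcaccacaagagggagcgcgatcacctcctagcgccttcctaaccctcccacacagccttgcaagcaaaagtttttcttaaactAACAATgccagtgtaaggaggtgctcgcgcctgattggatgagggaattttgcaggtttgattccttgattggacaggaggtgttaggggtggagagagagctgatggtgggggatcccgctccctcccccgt
Sema3e: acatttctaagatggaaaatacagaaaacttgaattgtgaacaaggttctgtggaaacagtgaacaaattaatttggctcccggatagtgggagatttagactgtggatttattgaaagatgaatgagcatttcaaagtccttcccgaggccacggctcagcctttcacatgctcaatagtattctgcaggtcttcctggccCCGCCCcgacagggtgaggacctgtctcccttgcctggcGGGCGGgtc
Sema4f: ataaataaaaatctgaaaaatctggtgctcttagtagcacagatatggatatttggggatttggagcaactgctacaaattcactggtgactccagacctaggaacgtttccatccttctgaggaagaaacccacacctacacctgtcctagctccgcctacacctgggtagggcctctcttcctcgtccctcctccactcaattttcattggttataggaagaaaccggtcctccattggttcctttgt
Sema3c has 3 GC boxes and 39 CpG dinucleotides in these bases, and Nrp2 has 5 GC boxes and 32. Ephb1 has no GC box, 1 AACAAT and 10 CpG, and Sema4f has neither motif and 4 CpG. Sema3e has 2 GC boxes and 7 CpG, and Epha3 has no GC box and 16 CpG.

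Across the RefSeq promoters matched to members, 61 for the 47 members that had an entry, the GC box occurred in 46 (75.4%), against 42.6% of 21263 promoters of all genes. AACAAT occurred in 3 (4.92%; Ephb1, Plxnb3 and Sema4d), against 1747 of 21263 (8.22%). These letters are a description of the windows and say nothing of binding. CpG number went with how many lists marked the start site. Member promoters marked in all 4 lists (35) had a median of 19 CpG, those marked in 1 to 3 lists (17) had 8 and those marked in none (9) had 6. All genes showed the same order, with medians of 17, 11 and 2. A GC box was present in 85.7, 64.7 and 55.6% of the member promoters in these classes, against 62.4, 51.0 and 15.2% for all genes.

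Among the class 3 semaphorins, the secreted ligands, gene bodies varied between lists while the gene ends kept their peaks, except at Sema3e and Sema3g. Sema3c (chr5:17574816-17730268, plus strand), a ligand known for guiding neural crest cells and vessels of the outflow tract, had 1.59 kb under peaks in the control at E11.5 and 16.5 kb in the control at E12.5. The labelled Sox9null list covered 9.48 kb and the labelled Sox9cKO list 2.80 kb. The E12.5 control and labelled Sox9null lists were high and the other lists low. The start region was present in every list, at 1592, 2720, 2461 and 1856 bp. The difference lay inside the gene, where 4 regions, centred 45.8, 65.0, 72.8 and 114.6 kb from the start, were marked in the E12.5 control and labelled Sox9null lists alone. The widest of them, at chr5:17646013-17649312, was 3300 bp in the E12.5 control and 2546 bp in the labelled Sox9null list. A pair of further regions, at 112.8 and 124.5 kb, occurred in the E12.5 control alone.

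Sema3d and Sema3a, guidance cues of growing axons, had the same list on top. Sema3d was covered by 1.55, 6.53, 4.36 and 2.19 kb, where the values of the E11.5 and E12.5 controls stand ahead of the labelled Sox9null and labelled Sox9cKO values, an order kept below. Sema3a was covered by 3.76, 9.29, 7.54 and 6.88 kb, lowest in the E11.5 control. Sema3d kept a peak at its start in every list, and its regions 30.3 and 33.0 kb from the start were in the E12.5 control alone. Of its 3 regions further in, 1 was in the E12.5 control and labelled Sox9cKO lists, 1 in the E12.5 control and labelled Sox9null lists and 1 in the labelled Sox9null list alone. Sema3a had a region at the outer end of its gene record in every list, while the RefSeq promoter that was matched to it, further in, had no peak at its start site in any list. Sema3e, the ligand of plexin-D1, had a single peak of 669 bp at its start in the E11.5 control and none elsewhere. That peak ranked low, above 10.6% of the peaks of its list.

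Sema3f and Sema3b were the most densely marked members, with a mean of 36.5 and 30.3% of the window covered over the 4 lists. Sema3f, a repellent read through Nrp2, was covered by 24.1, 25.7, 23.3 and 27.7 kb. Its gene-end peak sat at the score of 3100 that many top peaks share (702 to 2772 peaks a list). Sema3b was covered by 13.8, 18.1, 16.1 and 14.5 kb. Sema3g was covered by 4.51, 4.02, 3.07 and 5.65 kb, but 54.6% of its covered bases lay in other genes' bodies.

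The neuropilins, co-receptors of the class 3 ligands, were both covered by more in the E12.5 control and labelled Sox9null lists than in the other lists. Nrp2 (chr1:62703317-62818692, plus strand) was covered by 10.6, 19.0, 12.8 and 7.99 kb. Its start domain was broad in every list, at 6141, 7351, 7287 and 6409 bp, and always at the tied score that many top peaks share. Of its 9 regions, 4 were in the E12.5 control alone. Nrp1 was covered by 8.36, 11.1, 9.59 and 7.76 kb and was not called in any pairwise comparison.

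The plexins, the signalling receptors, included members with the opposite pattern. Plxnd1 (chr6:115954811-115995339, minus strand), a receptor for Sema3e that acts in endothelium, was covered by 5.08, 2.62, 1.30 and 12.6 kb. The labelled Sox9cKO list was highest and the E11.5 control next. Its start region was 1554 and 1734 bp wide in those lists and had no peak in the other lists. Of its 11 regions, 1 was in all 4 lists, 3 were in the E11.5 control and labelled Sox9cKO lists alone and 6 were in a single list.

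Genes of other cell types differed between the same lists, in both directions. Of 9 endothelial genes, 7, 5, 3 and 7 had a peak, and their summed coverage was 16.4, 13.2, 11.9 and 18.2 kb. Tie1 was covered by 2.55, 0, 0 and 2.72 kb, whereas Tek was covered by 0.748, 2.72, 3.51 and 1.85 kb and Flt1 by 0.718, 2.53, 0 and 0.775 kb. Emcn and Sox17 had no peak in any list.

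Of 7 muscle genes, 5, 2, 2 and 6 were marked, with sums of 37.2, 47.6, 46.8 and 47.4 kb. Pax3, of muscle precursors, was covered by 2.31, 0, 0 and 3.80 kb and Lbx1 by 2.61, 0, 0 and 6.37 kb, and Myod1 had no peak. Tnnt3, which makes up most of the sums, ran the other way with 28.4, 44.1, 44.3 and 30.5 kb, and Myog was covered by 2.41, 3.48, 2.48 and 2.54 kb. Of 6 blood genes, 6, 4, 4 and 6 were marked, with sums of 15.6, 11.4, 14.6 and 20.5 kb, and Tal1 was covered by 6.34, 0, 0 and 5.54 kb against 0.581, 4.97, 6.15 and 2.43 kb for Ptprc. Nerve and glia genes had 7, 6, 6 and 7 of 10 marked and sums of 16.8, 18.7, 17.1 and 18.5 kb. Foxd3 and Neurod1 were among those without a peak in any list. The part of these cell types in the members' values was not tested. Nor was that of peak number, which was larger in the E11.5 control and labelled Sox9cKO lists.

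Plxna2, a receptor that partners neuropilins, was covered by 3.04, 2.52, 0 and 1.56 kb and had no peak in the labelled Sox9null list. Its start region was 1028, 1731, 0 and 1555 bp. Plxnc1, the receptor of Sema7a, was covered by 3.16, 3.36, 5.79 and 3.42 kb, highest in the labelled Sox9null list. Its start site lacked a peak in the E12.5 control, and where present the peak ranked above 60.7% (control E11.5), 4.73% (labelled Sox9null) and 63.8% (labelled Sox9cKO) of its list. Plxna4, a receptor for Sema3a on sensory axons, had 27 regions, of which 7 were in all 4 lists and 15 in a single list, and was covered by 14.4, 18.6, 23.2 and 23.5 kb. Plxna1, Plxna3, Plxnb1, Plxnb2 and Plxnb3 were not called in any pairwise comparison. For Plxnb3, covered by 2.29 to 2.63 kb, 94.9% of those bases lay in other genes.

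The semaphorins of classes 4 to 7 shared no single pattern. Sema5a, a transmembrane cue with thrombospondin repeats, was covered by 9.50, 19.1, 18.4 and 13.5 kb, lowest in the E11.5 control. Of its 12 regions, those at 13.0 and 126.4 kb from the start were in the E12.5 control and labelled Sox9null lists alone. Sema6a, a ligand of A-type plexins, was covered by 9.94, 13.6, 12.47 and 9.02 kb. Sema4d, the ligand of plexin-B1, was covered by 5.72, 8.55, 2.05 and 7.20 kb and stood low in the labelled Sox9null list alone. Its gene-end peak ranked above 69.4, 34.1, 3.56 and 59.5% of the peaks of its list, so in the labelled Sox9null list it lay near the floor.

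Sema4a was covered by 5.56, 3.73, 2.79 and 5.84 kb and Sema7a, a lipid-anchored ligand, by 4.65, 3.50, 2.48 and 4.56 kb. In both, the E11.5 control and labelled Sox9cKO lists were the higher ones. Sema4c was covered by 13.0, 8.63, 12.1 and 14.5 kb, low in the E12.5 control alone, with 52.3% of its covered bases in other genes. Sema4f was covered by 0.622, 2.41, 0 and 0.719 kb. Sema5b had 5.55, 6.94, 6.57 and 8.53 kb. Sema4b, Sema4g, Sema6c and Sema6d were not called in any pairwise comparison, nor was Sema6b before scaling, and Sema6b and Sema6d had no gene-end peak in any list.

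**Figure D2:**
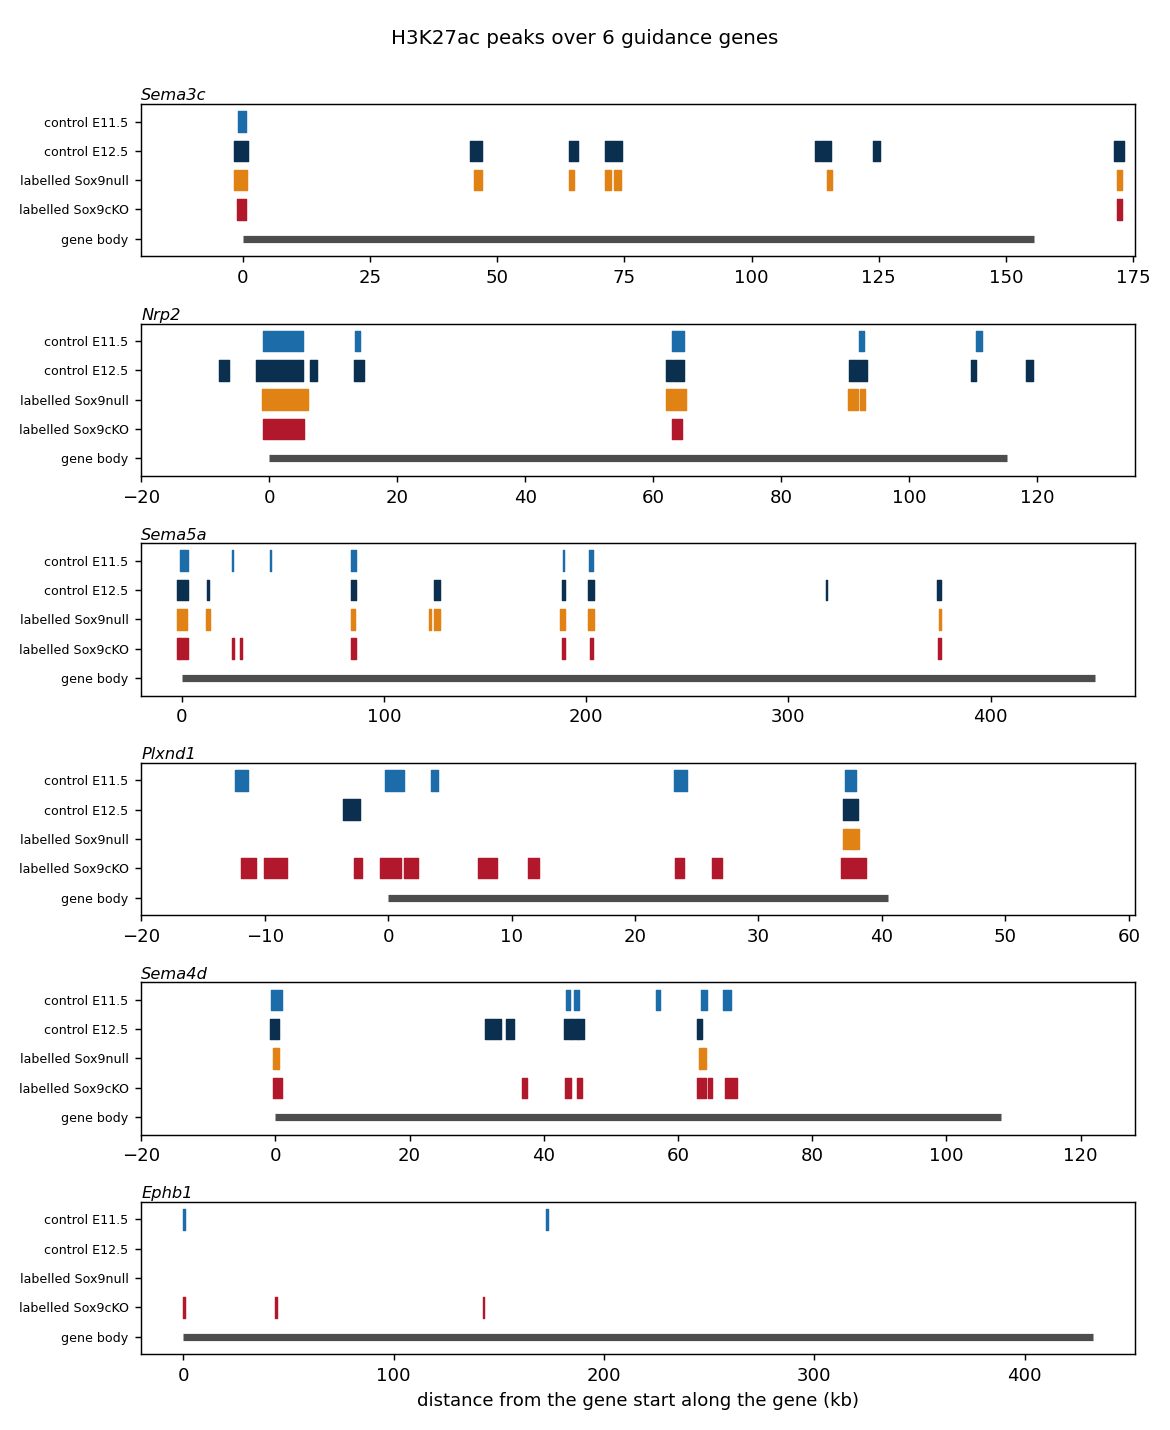
H3K27ac peaks in the 4 lists (rows of bars) at Sema3c, Nrp2, Sema5a, Plxnd1, Sema4d and Ephb1, by distance from the gene start in the direction of transcription (kb), with the gene body drawn as a line. Sema3c shows 4 regions in the E12.5 control and labelled Sox9null lists alone, and Plxnd1 shows its start peak in the E11.5 control and labelled Sox9cKO lists alone.

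Among the EphA receptors, Epha2, Epha3 and Epha7 were called as covered by more in the E12.5 than in the E11.5 control. After scaling to list totals none of them was called in that comparison. Epha7, expressed in limb mesenchyme, was covered by 4.12, 7.85, 4.38 and 4.37 kb. Its start region was in all 4 lists, and regions at 50.4 and 53.8 kb from the start were in the E12.5 control alone. Epha3 was covered by 3.26, 5.24, 5.57 and 6.58 kb, lowest in the E11.5 control, and its start site had a peak in the E12.5 control and labelled Sox9cKO lists. Epha2 was covered by 10.7, 16.4, 13.6 and 16.6 kb.

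Epha4, which directs motor axons into the dorsal limb, was covered by 6.90, 6.74, 5.61 and 7.66 kb and was not called. Epha8 was covered by 0.644, 0, 0 and 1.60 kb. Epha6, Epha8 and Epha10 had no gene-end peak in any list, and for Epha10 80.3% of the covered bases lay in other genes. Epha1 was not called in any pairwise comparison, and Epha5, Epha6 and Epha10 were called only after scaling to list totals.

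Ephb1, the EphB receptor with the lowest coverage, was covered by 1.48, 0, 0 and 2.29 kb, with a start region of 600 bp at E11.5 in the control and of 849 bp in the labelled Sox9cKO list. Those peaks ranked above 10.2 and 24.9% of the peaks of their lists. Ephb3 was densely marked, with a mean of 24.0% of its window, and was covered by 14.1, 14.7, 13.3 and 14.3 kb. Ephb2 had 12.8, 11.4, 11.4 and 15.4 kb, Ephb4 had 8.48, 8.84, 8.87 and 9.99 kb and Ephb6 had 2.18 to 2.38 kb. None of these 4 was called in a pairwise comparison.

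Among the ephrins, the ligands of the Eph receptors, the ephrin-A genes shared no single pattern. The window of Efna3 overlaps those of its neighbours Efna1 and Efna4, so these measurements are not independent. They were covered by 11.3, 10.2, 12.2 and 14.7 kb (Efna1), 8.39, 7.63, 8.79 and 12.2 kb (Efna3) and 9.34, 7.63, 6.06 and 11.9 kb (Efna4). The labelled Sox9cKO list was highest at each. Efna5, a ligand of EphA receptors, was covered by 11.2, 14.3, 10.5 and 9.85 kb. Of its regions, 3, at 62.6, 151.1 and 266.3 kb from the start, were in the control lists alone. Efna2 was covered by 10.5 to 12.3 kb.

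Each ephrin-B gene was lower in the E12.5 control and labelled Sox9null lists than in the other lists. Efnb1, a ligand that forms cell boundaries, was covered by 5.90, 4.92, 4.69 and 5.20 kb. Efnb2, a ligand that marks arterial endothelium, was covered by 5.85, 4.98, 4.19 and 5.54 kb. Efnb3 was covered by 14.7, 13.1, 9.52 and 18.3 kb, with 73.1% of those bases in other genes. The differences at Efnb1 and Efnb2 were under 2 kb.

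A member was called in a comparison of 2 lists when its covered length differed by at least 1.5 times and at least 1 kb. From E11.5 to E12.5 in the controls, 9 of 53 members (17%) were covered by more, against a background of 10.4% of all genes with a peak in either list: Sema3a, Sema3c, Sema3d, Sema4f, Sema5a, Nrp2, Epha2, Epha3 and Epha7. Another 3 (5.66%) were covered by less, Plxnd1, Ephb1 and Sema4c, against 6.62%. The members' median difference was 0.36 kb and that of all genes 0.13 kb. By family, 3 of 7 class 3 semaphorins and 3 of 9 EphA receptors were covered by more, and no plexin, EphB receptor or ephrin was. The EphA receptors did not rise as a family, with a median difference of -0.15 kb, 4 genes higher and 5 lower. The E12.5 list covers more bases in all. After scaling each list to the same total, 5 members were covered by more (background 5.02%) and 13 by less (17.1%), and the 5 were Sema3a, Sema3c, Sema3d, Sema4f and Sema5a. Of the 9 EphA receptors, 0 were then covered by more and 3 by less (Epha5, Epha6 and Epha10). That scaling moved the median of all genes from 0.13 to -0.74 kb. Among the upper 50% of each list by score, 4 were covered by more (Sema3a, Sema3c, Sema5a and Epha3). The share over all genes was not computed there, so this count has no background.

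The labelled Sox9null list was set against the E11.5 control. In it, 7 members (13.2%; background 7.02%) were covered by more, namely Sema3a, Sema3c, Sema3d, Sema5a, Plxna4, Plxnc1 and Epha3. Another 8 (15.1%; background 9.22%) were covered by less, namely Sema4a, Sema4d, Sema7a, Plxna2, Plxnd1, Ephb1, Efna4 and Efnb3. The median difference was -0.25 kb for the members and 0.03 kb for all genes. Scaling to list totals gave 5 more (background 4.77%) and 13 less (15.3%). With the lists exchanged, so that the labelled Sox9cKO list met this control, 7 were covered by more (background 8.0%) and 1, Plxna2, by less (1.51%), and after scaling 3 by more (4.08%) and 2 by less (3.62%). Among the upper 50% of each list by score, where no background was computed, Sema5a alone was covered by more. Sema3a, Sema3c, Plxna4 and Epha3 (more) and Plxna2 (less) were called with either list. Both comparisons share this 1 control, and after scaling Sema3a and Plxna2 were called with either.

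The labelled Sox9cKO list was set against the E12.5 control. Here 7 members (13.2%; background 12%) were covered by more, namely Sema4a, Sema4c, Plxnd1, Epha8, Ephb1, Efna3 and Efna4. Another 6 (11.3%; background 7.18%) were covered by less, namely Sema3c, Sema3d, Sema4f, Sema6a, Nrp2 and Epha7. The median difference was 0.56 kb for the members and 0.21 kb for all genes. Scaling gave 10 more (background 16.1%) and 5 less (5.02%). Among the upper 50% by score, again without a background, 2 were covered by less, Sema3c and Nrp2. With the lists exchanged, 1 member, Plxnc1, was covered by more (background 2.69%) and 6 by less (7.73%), and after scaling 2 by more (3.99%) and 6 by less (4.91%). Sema3c, Sema4f and Epha7 were covered by less with either list, before and after scaling, and both comparisons share this 1 control. This comparison also shares the E12.5 control with the comparison of ages, in which the same genes were high.

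A reading that does not depend on which deficient list is which asks whether both deficient lists lay on the same side of both controls. They lay above both at 11 members (20.8%; background 16.1%) and below both at 2 (3.77%; background 6.39%). The 11 were Sema4b, Sema4g, Plxna4, Plxnb2, Plxnb3, Plxnc1, Epha3, Ephb4, Ephb6, Efna1 and Efna3, and the 2 were Plxna2 and Efna5. Most of the gaps were small, as at Ephb6 with 2.24 kb in the higher control and 2.28 kb in the lower deficient list. Plxna4 had the widest, from 18.6 kb in the higher control to 23.2 kb in the lower deficient list. After scaling, 5 lay above both (background 9.34%; Sema4b, Sema4g, Sema5b, Plxna4 and Epha3) and 5 below both (6.12%).

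**Figure D3:**
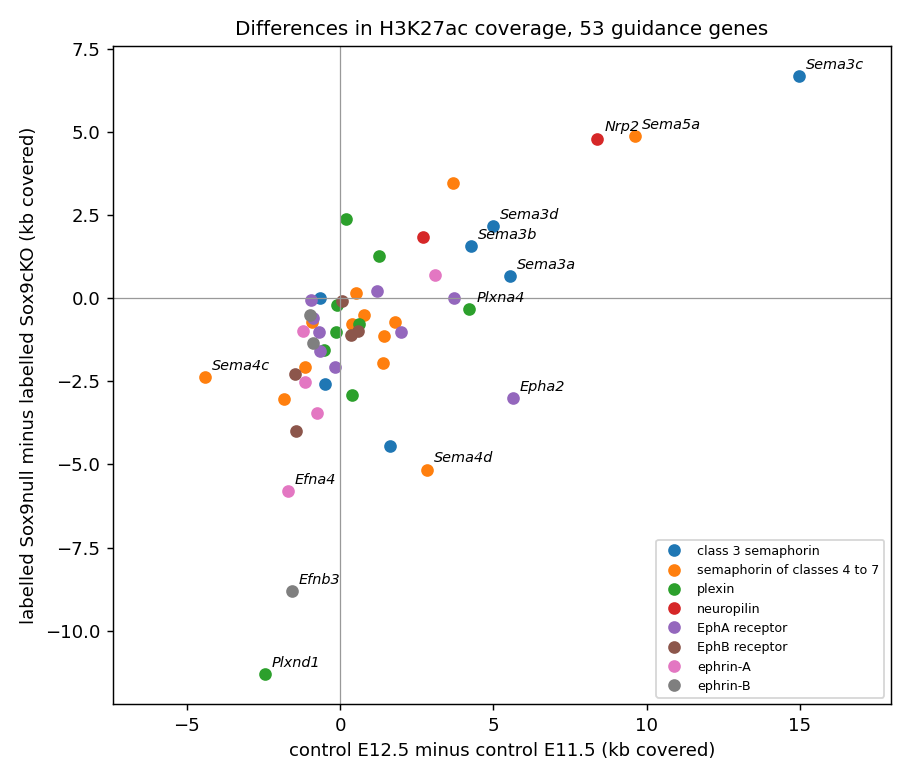
Difference in covered length between the controls (E12.5 minus E11.5, kb, horizontal axis) against that between the deficient lists (labelled Sox9null minus labelled Sox9cKO, kb, vertical axis) for the 53 guidance genes, which share no list between the axes. Sema3c and Nrp2 lie high on both axes and Plxnd1 low on both.

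The other grouping of the 4 lists separated the members more. In 12 members (22.6%; background 20.5%) the E12.5 control and labelled Sox9null lists both lay above the E11.5 control and labelled Sox9cKO lists, and in 19 (35.8%; background 27.6%) both lay below. The remaining grouping, the E12.5 control with the labelled Sox9cKO list, gave 8 above (15.1%; background 21.7%) and 0 below (3.58%). The 12 included 4 of the 7 class 3 semaphorins (Sema3a, Sema3b, Sema3c and Sema3d) and both neuropilins. The 19 included the 3 ephrin-B genes, 5 of 9 EphA receptors and the class 3 semaphorin Sema3g. Another 2 EphA receptors, Epha1 and Epha7, were among the 12. The 2 differences share no list, and over the 53 members their correlation was r = 0.66 (Spearman rho = 0.59). They had the same sign at 37 members (69.8%; 59.0% of all genes with a peak) and opposite signs at 15. Over all 16663 genes with a peak the correlation was r = 0.76 (rho = 0.42), so the members followed the table at large. These points share their libraries, and the values are descriptions.

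**Figure D4:**
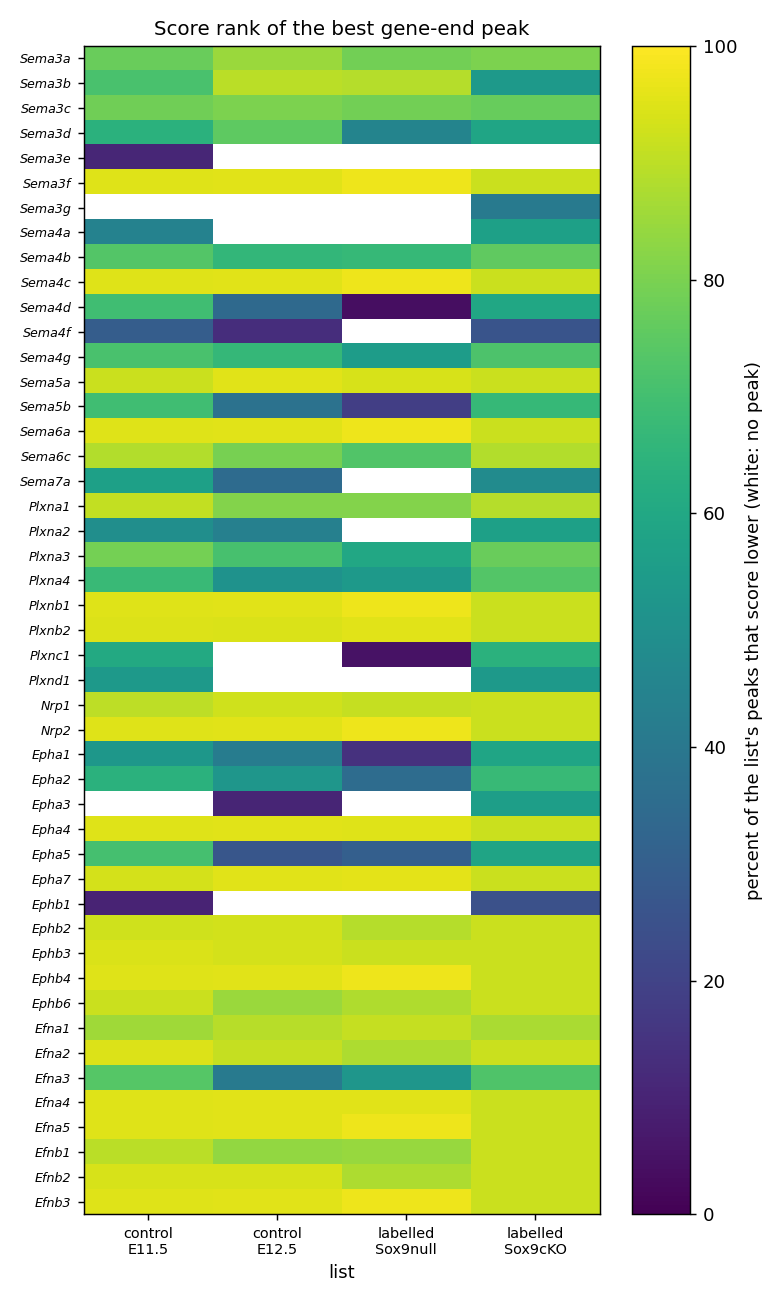
Heat map of the rank of the best gene-end peak of each guidance gene that has one (rows) in the 4 lists (columns). Colour is the percent of the peaks of the same list that score lower, and white means no peak. Nrp2 and Sema3f sit at the tied score that many top peaks share in all 4 lists, while the peaks of Ephb1 and Sema3e rank low where they occur.

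The presence of a gene-end peak differed between lists at a minority of members. It was found in all 4 lists at 37 (69.8%; 50% of all genes), in none at 6 (11.3%; 39.9% of all genes; Sema6b, Sema6d, Plxnb3, Epha6, Epha8 and Epha10) and in some lists at 10. The 10 make up 21.3% of the 47 members with any such peak, against a background of 16.9% of genes. Sema4a, Plxnd1 and Ephb1 had it in the E11.5 control and labelled Sox9cKO lists (5.66%; 2.81% of all genes). Sema4f, Sema7a and Plxna2 lacked it in the labelled Sox9null list alone (5.66%; 1.66% of all genes) and Plxnc1 in the E12.5 control alone. Epha3 had it in the E12.5 control and labelled Sox9cKO lists, Sema3e in the E11.5 control alone and Sema3g in the labelled Sox9cKO list alone.

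Joining the peaks of the 4 lists gave 316 regions at the members, of which 120 (38.0%) were in all 4 lists, against 44.7% of regions near any gene. The E12.5 control and labelled Sox9null lists alone marked 13 (4.11%; background 2.78%), and the E11.5 control and labelled Sox9cKO lists alone marked 25 (7.91%; background 6.7%). Both controls alone marked 6 (1.9%; background 1.51%), and both deficient lists alone marked 4 (1.27%; background 0.976%). Of the regions in a single list, the labelled Sox9cKO list held 49 (15.5%; background 12.1%) and the E11.5 control 32 (10.1%; 10.6%). The E12.5 control held 25 (7.91%; 6.74%) and the labelled Sox9null list 8 (2.53%; 2.48%). Of the 13 regions in the E12.5 control and labelled Sox9null lists alone, 4 were in Sema3c.

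Other genes of these pathways were counted from lists that hold no member. Of 36 signalling partners of plexins, Ephs and ephrins, 4 (11.1%) had more coverage and 6 (16.7%) less in the E12.5 than in the E11.5 control, against 10.4 and 6.62% of all genes. The labelled Sox9null list against the E11.5 control gave 1 more (2.78%) and 5 less (13.9%), against 7.02 and 9.22%. The labelled Sox9cKO list against the E12.5 control gave 6 more (16.7%) and 2 less (5.56%), against 12 and 7.18%. With the lists exchanged, the comparison with the E11.5 control gave 3 more (8.33%) and 1 less (2.78%), against 8.0 and 1.51%. That with the E12.5 control then gave 1 more (2.78%) and 3 less (8.33%), against 2.69 and 7.73%. Of 22 genes of the neighbouring Slit, Robo and netrin guidance systems, the control comparison gave 4 more (18.2%) and 2 less (9.09%). The labelled Sox9null comparison gave 3 each way (13.6%) and the labelled Sox9cKO comparison 2 each way (9.09%), beside the same backgrounds as for the partners. With the lists exchanged, 3 had more (13.6%) and 1 less (4.55%) against the E11.5 control. Against the E12.5 control, 0 then had more and 2 less (9.09%), beside 2.69 and 7.73% of all genes. Of these 22 genes 16 had a peak there, while the shares are over all 22 and the backgrounds over genes with a peak. Each of these differences is a matter of a few genes. Robo1, Robo2, Slit3 and Unc5c were the 4 covered by more at E12.5 in the controls. Slit3, a secreted ligand of Robo receptors, was covered by 34.4, 65.4, 62.5 and 50.3 kb, lowest at E11.5 in the control.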

How the data were processed

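H3K27ac was profiled in limb bud lysates with 1 library a group, and the authors deposited 1 peak list per library. The deposited score of each peak is the authors' MACS score, by the peak names in the lists, and ranges from 50.01 to 3233.06. It was used to rank peaks within a list. The other deposited columns are positions on mm10. The submitters' processing notes name mm10, CASAVA 1.8 and deepTools. For the aligner, the input control and the MACS settings, the sources used here give nothing. The other 20 libraries of the series were not analysed here, and a marker gene is not reported. Read depth is unknown, so no interval was placed on a value.

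Peaks were set on 21887 RefSeq protein-coding genes (GRCm38.p6). Covered length over the gene body plus 20 kb on either side was computed, and a gene was called at a difference of at least 1.5 times and 1 kb. Gene-end peaks lay no more than 1000 bp from a gene's start or end, and an overlap of 1 bp sufficed. All comparisons are without a test. Shares of called genes are over all genes of a set, and their backgrounds over genes with a peak in a list compared. Named with all 4 values were members called (up to 6 each way), those whose gene-end state differed, the 6 most densely covered and both neuropilins, with family mates. The members and lists were chosen with earlier results of these data known. RefSeq promoter entries matched 47 members. In a copy of the E11.5 control list, 200 of 200 genes emptied of peaks, among 21887, were called as covered by less. The call rule fixes that outcome, so it checks the code alone. On simulated peaks 500 of 500 windows equalled a per-base count. The software was matplotlib 3.10.9, pandas 2.3.3, numpy 2.4.6 and scipy 1.17.1 under Python 3.11.15.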

Additional observations from a re-analysis of the deposited data

Results flagged for a closer look

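Some members were covered by more than in the control at one age and by less at the other, with a call in each comparison. With 1 library a group the difference between the ages was not tested. With the lists as labelled, the E12.5 difference minus the E11.5 difference was -21.6 kb at Sema3c (E11.5 difference 7.89 kb, E12.5 difference -13.7 kb) and -7.14 kb at Sema3d (2.81 and -4.34 kb). It was 13.8 kb at Plxnd1 (-3.77 and 9.98 kb), 7.50 kb at Efna4 (-3.28 and 4.22 kb), 4.87 kb at Sema4a (-2.77 and 2.10 kb) and 3.77 kb at Ephb1 (-1.48 and 2.29 kb). With the deficient lists exchanged, 2 of these genes were still called in opposite directions. Sema3c then had -8.28 kb (1.21 and -7.07 kb), and Plxnd1 had -8.85 kb with its directions turned (7.53 and -1.32 kb).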

How the results depend on the processing

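No paired analysis was possible because each group has 1 library. Counts of members are given against those in the report. Of these settings, the share over all genes was computed for scaling and exchanged lists alone. At the others a change in the members cannot be told from one in all genes. For the E12.5 against the E11.5 control (9 more, 3 less), the upper 50% of each list by score gave 4 more, scaling gave 5 more and 13 less, and a 2-times threshold gave 5 more and 1 less. An equal number of top-scored peaks gave 1 less, and windows with 5 and 100 kb flanks gave 5 and 0 less. For the labelled Sox9null list against the E11.5 control (7 more, 8 less), the upper 50% gave 1 more, the 2-times threshold 3 more and 4 less, equal numbers 5 less, scaling 13 less, 100 kb flanks 3 less and exchanged lists 1 less. For the labelled Sox9cKO list against the E12.5 control (7 more, 6 less), the upper 50% gave 2 less, 100 kb flanks 3 more and 10 less, the 2-times threshold 3 more and exchanged lists 1 more. For both deficient lists against both controls (11 more, 2 less), the upper 50% gave 6 more and 4 less, scaling 5 and 5, 5 kb flanks 7 more and 100 kb flanks 5 and 5. Leaving out the E12.5 control list gave 21 more and 10 less, leaving out the Sox9null list 27 more and 7 less, and leaving out the E11.5 control or Sox9cKO list 18 or 20 less. Leaving out a list loosens the rule, so these counts could only stay or rise.

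Some members turned direction. Against the E11.5 control, the labelled Sox9null list differed by -1.14 kb at Plxnc1 and -1.55 kb at Sema3d in the upper 50% by score, and by 2.98 kb at Sema4a and 1.37 kb at Efna4 with 100 kb flanks. With the lists exchanged it became 3.67 kb at Efnb3, 1.48 kb at Sema4d, 0.28 kb at Sema4a, 2.51 kb at Efna4, 7.53 kb at Plxnd1 and 0.81 kb at Ephb1. Against the E12.5 control, Sema4a was -0.72 kb in the upper 50%, -1.98 kb with 100 kb flanks and -0.94 kb with the lists exchanged, where Efna4 was -1.57 kb and Plxnd1 -1.32 kb. For both lists against both, the upper 50% gave 0.78 kb at Plxna2 and -0.71 kb at Plxnb2. The cause was not tested. Gene-end states that differed (10) stayed between 10 and 13, and regions in all 4 lists (120) between 80 and 117. A peak near the lowest score can be missing from another list at a small difference in signal or depth, and 1 library a group leaves this unmeasured.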
